A study of Homo sapiens with 6 samples.

Results

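The 44 genes described here belong to 5 solute carrier families known mainly for amino acid transport outside the SLC7 exchangers, SLC1, SLC6, SLC36, SLC38 and SLC43. Some members carry other substrates, such as creatine, monoamines or purine nucleobases. They were chosen by gene symbol alone, as every symbol made of 1 of these family names, the letter A and a number, among 21619 entries of a read count table. No measured value enters that rule, although it was set with earlier results of these data known. PolyA RNA was sequenced from HT1080, a human fibrosarcoma cell line, in 3 libraries of cells with stable overexpression of PGK1, the glycolytic enzyme phosphoglycerate kinase 1 (PGK1_OE), and in 3 libraries labelled PGK1 WT (WT). The columns of the WT libraries carry the name v511. The labels do not say whether WT cells hold an empty vector, what drives PGK1 in the PGK1_OE cells, or whether either line is 1 clone. All 6 libraries share 1 batch label, and the series asks what PGK1 does in these cells, with SLC7A11 and ferroptosis in its title.

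Cells take up amino acids through carriers that differ in what drives them. SLC1 and most SLC6 carriers and the SLC38 system A carriers use the sodium gradient, SLC36 carriers use protons, and SLC43A1 and SLC43A2 let large neutral amino acids move down their gradient. In tumour cells SLC1A5 and the SLC38 carriers are best known for moving glutamine, which SLC7 exchangers can then trade for other amino acids. A shortage of amino acids raises translation of the transcription factor ATF4, and SLC1A4, SLC1A5, SLC6A9 and SLC38A2 are known among the transporter genes that respond to it.

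PGK1 itself stood at 13334, 12216 and 12412 normalised read counts scaled to library size (CPM) in the PGK1_OE libraries, against 522, 527 and 519 CPM in the WT libraries (log2 fold change 4.6, SE 0.04, edgeR adjusted p = 9.65e-14). Depth was between 35851668 and 40538274 counts in PGK1_OE libraries and between 34425162 and 37500947 counts in WT libraries. All 6 mesenchymal markers examined rose. Of all 14322 entries tested, 71.2% passed an edgeR adjusted p of 0.05, 35.4% upward and 35.8% downward. The 6 markers summed to between 3019 and 3065 FPKM in PGK1_OE libraries and between 1824 and 2061 FPKM in WT libraries. FPKM is the authors' level per gene length. The 5 epithelial markers, of which EPCAM, KRT5 and KRT14 had 0 counts in every library, summed to at most 1.07 FPKM in a PGK1_OE library and 0.852 in a WT library. Of these 5, 2 were tested. CDH1 was called lower, with 0 counts in each PGK1_OE library, against 17, 28 and 16 in WT libraries (edgeR adjusted p = 1.82e-04). It met the count filter through the WT libraries alone, so it could only be called lower. CLDN4 did not pass an adjusted p of 0.05. The epithelial sums overlapped, from 0.521 to 1.07 FPKM in PGK1_OE libraries and from 0.555 to 0.852 FPKM in WT libraries. The 5 blood cell markers, with PTPRC at 0 counts throughout, summed to at most 1.39 FPKM in a PGK1_OE library and 0.447 in a WT library, and LYZ among them rose (log2 fold change 1.70, SE 0.36, adjusted p = 0.0013). The 6 neural and glial markers, examined because many of these carriers serve the nervous system, summed to between 4.70 and 5.88 FPKM in PGK1_OE libraries and between 3.19 and 4.03 FPKM in WT libraries. Of these 6, SNAP25 rose, RBFOX3 fell, and none was at 0 counts in all libraries. The part of these markers in the results was not tested. The labels do not say whether the 3 libraries of a group came from separate cultures, so each p-value reflects only how far these libraries varied, and that variation may be technical.

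Promoter letters are shown first for the windows of these genes that hold TGATGNAA, the core of the element to which ATF4 and C/EBP factors bind together. RefSeq windows on GRCh38.p14, from 250 bases before to 50 bases after a transcript start, were at hand for 35 of the 44 genes, in 50 windows. Both strands were searched, and TGATGNAA was found in 4 of the 50 windows, while 3.62% of 35116 promoter windows of all genes hold it. These are windows of SLC1A4, SLC1A5 and SLC38A1, whose mRNAs fell, and of SLC1A3, whose mRNA rose. Capitals mark the match, which can lie on either strand.
SLC1A4, chr2:64989149-64989448, plus strand: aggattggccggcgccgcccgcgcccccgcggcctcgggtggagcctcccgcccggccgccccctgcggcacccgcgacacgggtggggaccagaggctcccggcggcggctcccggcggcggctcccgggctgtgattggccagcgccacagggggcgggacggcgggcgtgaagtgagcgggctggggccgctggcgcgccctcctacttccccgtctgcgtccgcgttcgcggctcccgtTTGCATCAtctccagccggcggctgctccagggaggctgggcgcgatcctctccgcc
SLC1A5, chr19:46784765-46785064, minus strand: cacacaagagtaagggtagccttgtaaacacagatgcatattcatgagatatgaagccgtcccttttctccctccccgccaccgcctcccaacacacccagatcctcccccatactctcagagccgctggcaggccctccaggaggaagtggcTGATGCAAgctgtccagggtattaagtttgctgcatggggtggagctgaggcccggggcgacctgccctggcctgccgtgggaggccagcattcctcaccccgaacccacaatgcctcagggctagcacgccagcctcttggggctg
SLC38A1, chr12:46266467-46266766, minus strand: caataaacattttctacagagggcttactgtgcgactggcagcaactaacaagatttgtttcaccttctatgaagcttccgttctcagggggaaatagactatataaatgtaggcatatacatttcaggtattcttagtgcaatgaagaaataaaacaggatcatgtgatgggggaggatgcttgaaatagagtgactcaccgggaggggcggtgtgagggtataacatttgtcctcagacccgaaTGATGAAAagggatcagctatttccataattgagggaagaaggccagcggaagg
SLC1A3, chr5:36596338-36596637, plus strand: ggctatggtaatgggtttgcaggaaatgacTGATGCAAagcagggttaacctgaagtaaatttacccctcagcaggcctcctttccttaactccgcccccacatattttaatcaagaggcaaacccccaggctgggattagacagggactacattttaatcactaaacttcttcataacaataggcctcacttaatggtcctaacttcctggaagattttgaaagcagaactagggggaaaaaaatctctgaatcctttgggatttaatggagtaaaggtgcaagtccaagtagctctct
The match begins 7 bases before the start in the SLC1A4 window, 97 before in the SLC1A5 window, 4 before in the SLC38A1 window and 220 before in the SLC1A3 window. The SLC1A4, SLC1A5 and SLC38A1 windows lie inside the genes as GENCODE 29 annotates them, past the outermost start, and the SLC1A3 window lies before the start of its gene. Each of these genes has other RefSeq starts whose windows hold no match, and the data do not say which start was used. A match is a run of letters and not a site of binding. The windows of SLC6A9 and SLC38A2 hold none of these letters, which says nothing of elements elsewhere in those genes. The E-box CACGTG stood in 7 of the 50 windows, against 7.26% of all windows, and TGACNNNGC, the core of the antioxidant response element, in 2 of the 50, against 13.3% of all windows. Both strands were searched, and neither motif stood in the 4 windows printed above.

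Of the 44 genes, 24 had enough counts to be tested and 20 did not. In PGK1_OE cells 10 of the 24 fell, 10 rose and 4 did not pass an adjusted p of 0.05. Across all 14322 entries tested 71.2% passed, 35.8% downward and 35.4% upward, and 83.3% of the tested carriers passed, not far from that background. Of the 24, 7 passed lower and 5 higher with a fold of at least 2, larger shares than the 12.1% lower and 12.0% higher among all entries. The median log2 fold change of the 24 was -0.01. CPM of the 2 groups did not overlap for 21 of the 24, while that was so for 76.4% of all entries. Genes near the count limit pass it through the group in which they are higher, so these counts describe the tested genes and not all 44. With limma on log2(FPKM + 1) in place of the count test, 6 carriers passed upward where a minimum of 1 FPKM left 18 to be tested, and 8 without that minimum.

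**Figure D1:**
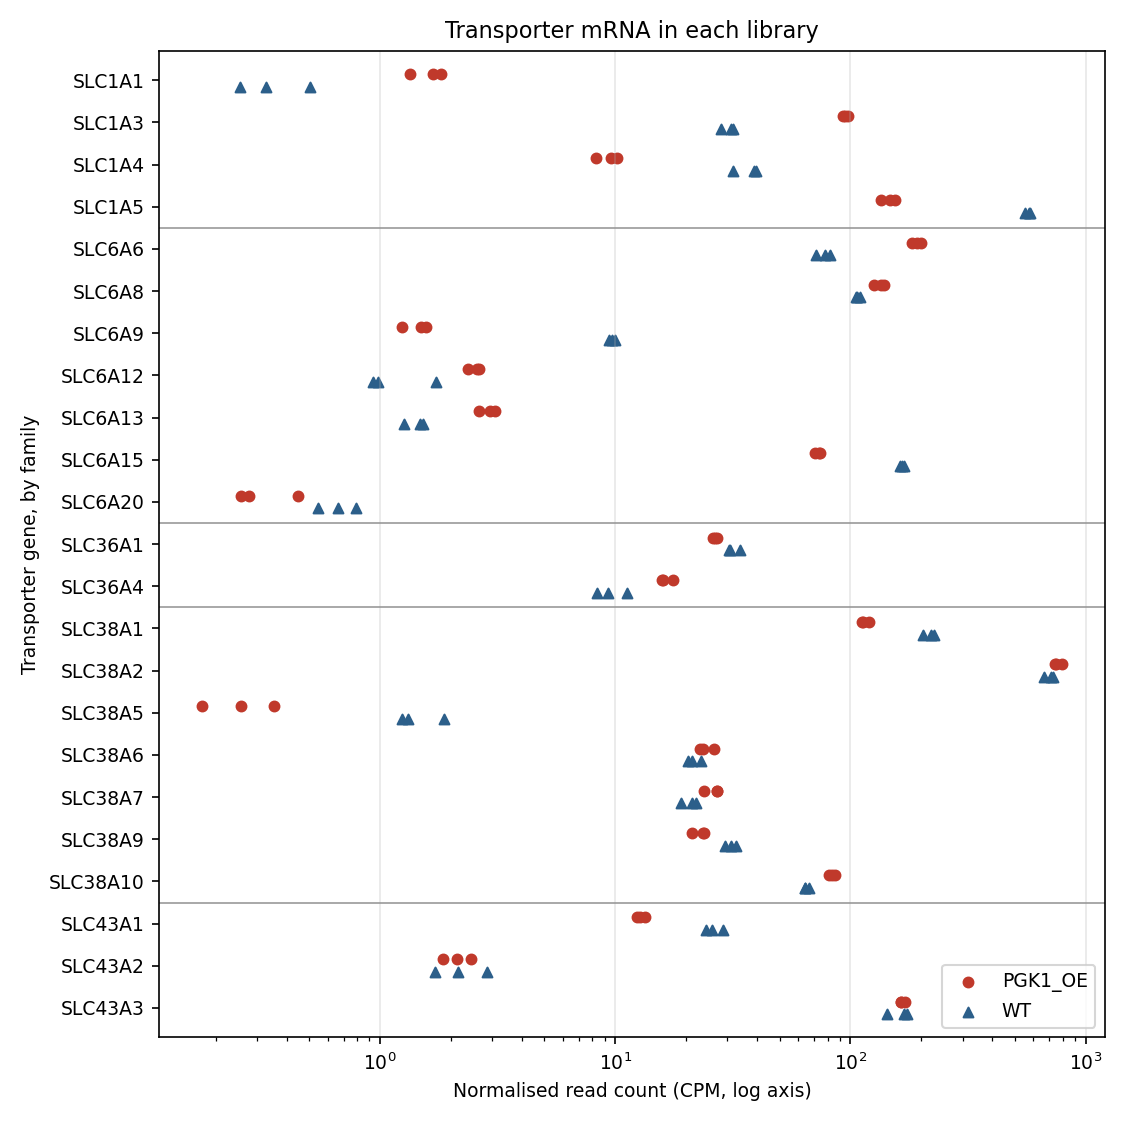
Each row is 1 of 23 tested transporter genes and each point 1 library, with normalised read count (CPM) on a log axis, circles for the 3 PGK1_OE libraries and triangles for the 3 WT libraries. SLC1A5 lies between 135.5 and 154 CPM in PGK1_OE and between 553 and 580.4 CPM in WT, while SLC43A3 overlaps between the groups.

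**Figure D2:**
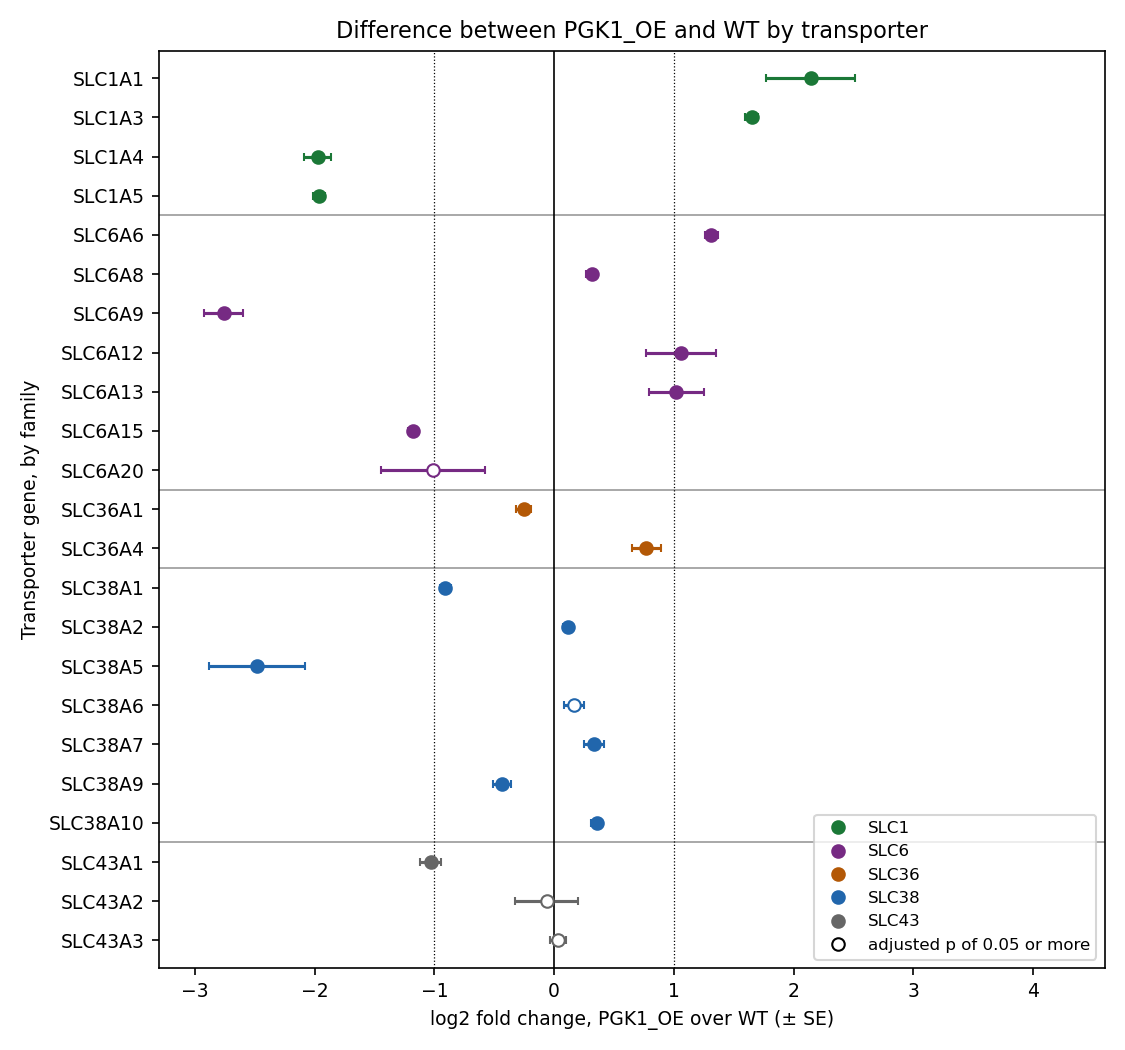
Points are log2 fold changes of PGK1_OE over WT with bars of 1 SE for 23 tested genes, coloured by family, and open points did not pass an adjusted p of 0.05. Dotted lines mark a log2 fold change of 1 in either direction; SLC1A1 and SLC1A3 lie to the right and SLC1A4 and SLC1A5 to the left.

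In the SLC1 family both neutral amino acid carriers fell, and of the 5 glutamate carriers the 2 that could be tested rose. SLC1A5 (ENSG00000105281, chromosome 19, 46774883 to 46788594, minus strand of GRCh38), also called ASCT2, exchanges glutamine and other neutral amino acids across the plasma membrane. It had 135.5, 154 and 147 CPM in the PGK1_OE libraries, against 574, 553 and 580.4 CPM in the WT libraries. The groups stand far apart, with every PGK1_OE library below every WT library, and the level was 3.91-fold lower (log2 fold change -1.97, SE 0.05, adjusted p = 4.53e-11 by edgeR). In such bulk RNA, fewer cells of a kind and less RNA per cell cannot be told apart. SLC1A5 shares 780 exonic bases with the antisense gene AC008622.2. SLC1A4 (chromosome 2, 64988477 to 65023865, plus strand), or ASCT1, carries alanine, serine, cysteine and threonine. It had 8.27, 9.55 and 10.2 CPM in PGK1_OE libraries, against 39.1, 31.5 and 39.5 CPM in WT libraries. No library overlapped with the other group, and its 3.93-fold fall (log2 fold change -1.98, SE 0.11, adjusted p = 2.36e-08) was close in size to that of SLC1A5.

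SLC1A3 (chromosome 5, 36606355 to 36688334, plus strand), the glutamate and aspartate carrier EAAT1 known from glia, moved the other way. It had 97.9, 95.2 and 92.7 CPM in PGK1_OE libraries, against 31.2, 28.3 and 31.6 CPM in WT libraries. All 3 PGK1_OE libraries were above all WT libraries (log2 fold change 1.65, SE 0.06, adjusted p = 3.90e-10). The glial marker GFAP had 1.04 ± 0.184 CPM in PGK1_OE and 1.16 ± 0.0794 CPM in WT (SD, n = 3 each), and S100B and OLIG2 were too low to test. SLC1A1, or EAAT3, which carries glutamate, aspartate and cysteine, was a low gene with 73, 53 and 59 raw counts in PGK1_OE libraries, against 19, 9 and 12 in WT libraries. It rose with a log2 fold change of 2.14 (SE 0.37, adjusted p = 2.62e-04). SLC1A2, the other main glial glutamate carrier, had at most 12 counts in any library and was not tested, and SLC1A6 and SLC1A7 had 0 counts in all 6. On the FPKM scale, which allows for gene length, SLC1A5 was 1.73, 2.15 and 2.08 times the level of SLC1A3 in PGK1_OE libraries, against 23.5, 24.7 and 23.1 times in WT libraries.

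SLC6 is the largest of these families, with 19 genes in the table, of which 8 were tested. Of the 8, 3 fell, 4 rose and SLC6A20 did not pass. SLC6A9 (chromosome 1, 43991500 to 44031467, minus strand), the glycine transporter GlyT1, had 60, 49 and 55 raw counts in PGK1_OE libraries, against 356, 354 and 355 in WT libraries. In CPM these are 1.5, 1.23 and 1.56 in PGK1_OE, against 9.39, 10.01 and 9.69 in WT. The WT values were nearly level and all above the PGK1_OE values (log2 fold change -2.76, SE 0.16, adjusted p = 2.82e-08). This was the largest fall among the 24. The value is uncertain, because 404 exonic bases are shared with CCDC24 on the opposite strand and the strand setting of the counting is not given.

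SLC6A15 (chromosome 12, 84859488 to 84913615, minus strand), or B0AT2, carries branched-chain amino acids and proline and is known best from brain. It had 73.8, 74.5 and 70.4 CPM in PGK1_OE libraries, against 162, 169 and 165 CPM in WT libraries, again with no overlap (log2 fold change -1.18, SE 0.04, adjusted p = 4.86e-10). SLC6A20, a carrier of proline and other imino acids, had 18, 11 and 9 counts in PGK1_OE libraries, against 25, 28 and 20 in WT libraries. Its log2 fold change of -1.01 (SE 0.44) had an adjusted p of 0.0571, which ranged from 0.0354 to 0.172 over the alternatives and was 0.0450 without PGK1_OE replicate 1.

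The SLC6 carriers of osmolytes and of creatine were higher in PGK1_OE cells. SLC6A6 (chromosome 3, 14402576 to 14489349, plus strand), the taurine transporter, had 199, 192 and 183 CPM in PGK1_OE libraries, against 77.9, 71.5 and 81.7 CPM in WT libraries. No WT value reached a PGK1_OE value (log2 fold change 1.31, SE 0.05, adjusted p = 1.55e-09). SLC6A8 (chromosome X, 153688099 to 153696593, plus strand), the creatine transporter, had 138, 135 and 126 CPM in PGK1_OE libraries, against 105, 109 and 107 CPM in WT libraries. This is a small rise with no overlap (log2 fold change 0.31, SE 0.04, adjusted p = 5.75e-05). SLC6A8 has a near-identical copy, SLC6A10P, and SLC6A6 has a processed copy, SLC6A6P1. Neither symbol is among the entries counted, so reads may have been shared with these copies unseen.

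SLC6A12, the betaine and GABA carrier BGT1, and SLC6A13, the GABA and taurine carrier GAT2, lie 6051 bases apart on chromosome 12 with no coding gene between them. SLC6A12 had 2.62, 2.37 and 2.58 CPM in PGK1_OE libraries, against 0.976, 1.73 and 0.928 CPM in WT libraries. SLC6A13 had 2.92, 2.65 and 3.09 CPM in PGK1_OE libraries, against 1.27, 1.47 and 1.53 CPM in WT libraries. Both rose, with log2 fold changes of 1.06 (SE 0.30, adjusted p = 0.00713) for SLC6A12 and 1.02 (SE 0.23, adjusted p = 0.00185) for SLC6A13. WT replicate 2 is the highest WT library for SLC6A12, and without it the log2 fold change was 1.41. The other 11 SLC6 genes were not tested and had at most 17 counts in any library. They are the noradrenaline, dopamine and serotonin carriers SLC6A2, SLC6A3 and SLC6A4, the glycine carrier SLC6A5, the proline carrier SLC6A7, the GABA carrier SLC6A11, and SLC6A14, SLC6A16, SLC6A17, SLC6A18 and SLC6A19. SLC6A11 and SLC6A18 had 0 counts in every library, where 3 counts would be between 0.0750 and 0.0851 CPM in PGK1_OE libraries and between 0.0791 and 0.0848 CPM in WT libraries.

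Of the 4 proton-coupled SLC36 genes, SLC36A1 and SLC36A4 were tested, and they moved in opposite directions. SLC36A1, or PAT1, which moves small neutral amino acids out of lysosomes, had 27.1, 26.6 and 26.1 CPM in PGK1_OE libraries, against 30.6, 33.9 and 30.7 CPM in WT libraries. It fell by a small amount with no overlap between groups (log2 fold change -0.25, SE 0.07, adjusted p = 0.00439). SLC36A4, or PAT4, a high-affinity carrier of proline and tryptophan, had 15.9, 17.7 and 15.8 CPM in PGK1_OE libraries, against 8.39, 9.31 and 11.2 CPM in WT libraries. By counts it rose (log2 fold change 0.77, SE 0.12, adjusted p = 1.25e-04). The authors' FPKM values did not bear this size out, with 2.69, 3.08 and 2.53 FPKM in PGK1_OE libraries, against 2.08, 1.58 and 3.00 FPKM in WT libraries. Those overlap, and limma on log2(FPKM + 1) gave a log2 fold change of 0.25 (adjusted p = 0.174; over all alternatives from 1.66e-07 to 0.253). SLC36A2 and SLC36A3, which neighbour SLC36A1 on chromosome 5, had at most 4 counts in any library.

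The SLC38 family holds the most abundant of these mRNAs in PGK1_OE cells, SLC38A2. SLC38A1 and SLC38A2 are system A carriers, which bring in glutamine, alanine and serine with sodium. SLC38A1 (chromosome 12, 46183063 to 46270017, minus strand) had 112, 120.0 and 113 CPM in PGK1_OE libraries, against 226, 203 and 219 CPM in WT libraries. All PGK1_OE values were below all WT values (log2 fold change -0.91, SE 0.05, adjusted p = 1.35e-08). SLC38A2, its neighbour at 88172 bases with no coding gene between (chromosome 12, 46358189 to 46372867, minus strand), had 792, 741 and 752 CPM in PGK1_OE libraries, against 714, 665 and 723 CPM in WT libraries. The groups do not overlap but stand close.

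SLC38A2 therefore passed with the smallest log2 fold change of the 20 that did, 0.12 (SE 0.04, adjusted p = 0.0232). Its adjusted p was 0.0528 without PGK1_OE replicate 1, 0.406 by limma on log2(FPKM + 1), and from 0.00387 to 0.451 over all alternatives. FPKM of SLC38A2 was 12.1, 10.5 and 11.2 times that of SLC38A1 in PGK1_OE libraries, against 4.85, 5.73 and 5.04 times in WT libraries. Of the 4 carriers named above as genes of the amino acid response, SLC1A4, SLC1A5 and SLC6A9 fell and SLC38A2 rose by 0.12 on the log2 scale. SLC38A4, the remaining system A gene, had at most 10 counts in any library and was not tested.

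SLC38A5, a system N carrier of glutamine, histidine and asparagine, was low, with 7, 14 and 9 counts in PGK1_OE libraries, against 47, 66 and 48 in WT libraries. It fell with a log2 fold change of -2.48 (SE 0.40, adjusted p = 1.59e-04), and SLC38A3, the other system N gene, had 2 counts in 1 library. SLC38A9, an arginine sensor on the lysosome that signals to the growth kinase mTOR, had 21.2, 23.9 and 23.5 CPM in PGK1_OE libraries, against 29.2, 31.1 and 32.5 CPM in WT libraries. It fell with no overlap (log2 fold change -0.43, SE 0.07, adjusted p = 2.23e-04).

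SLC38A7, which moves glutamine and asparagine out of lysosomes, had 27.2, 27.2 and 23.9 CPM in PGK1_OE libraries, against 19.0, 22 and 21.1 CPM in WT libraries. It rose by counts (log2 fold change 0.33, SE 0.08, adjusted p = 0.00366) but did not pass by limma on log2(FPKM + 1) (0.17, adjusted p = 0.135; from 0.00215 to 0.189 over all alternatives). SLC38A10 had 85.6, 83.4 and 80.8 CPM in PGK1_OE libraries, against 66.8, 64.3 and 63.9 CPM in WT libraries, and rose with no overlap (log2 fold change 0.36, SE 0.05, adjusted p = 2.23e-05). Here 610 exonic bases are shared with an antisense gene. SLC38A6 had 22.9, 26.2 and 23.7 CPM in PGK1_OE libraries, against 21.1, 20.4 and 23.2 CPM in WT libraries, which overlap. Its log2 fold change of 0.17 (SE 0.08) had an adjusted p of 0.0866, was 0.0368 without WT replicate 3 and ran from 0.0168 to 0.283 over the alternatives. SLC38A6 shares 245 exonic bases with TRMT5 on the opposite strand. SLC38A8 and SLC38A11 had 0 counts in all 6 libraries.

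In the SLC43 family 1 of 3 genes passed. SLC43A1 (chromosome 11, 57484534 to 57515786, minus strand), or LAT3, a facilitated carrier of large neutral amino acids, had 13.3, 12.4 and 12.8 CPM in PGK1_OE libraries, against 24.2, 25.7 and 28.8 CPM in WT libraries. The groups are clearly apart (log2 fold change -1.03, SE 0.09, adjusted p = 6.52e-07). SLC43A2, or LAT4, with the same kind of substrates, had 1.85, 2.44 and 2.13 CPM in PGK1_OE libraries, against 1.71, 2.15 and 2.84 CPM in WT libraries. It did not pass (log2 fold change -0.06, SE 0.26, adjusted p = 0.842).

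SLC43A3, which is known as a carrier of purine nucleobases, lies 56954 bases from SLC43A1 with 1 coding gene between. It had 164, 169.7 and 165 CPM in PGK1_OE libraries, against 174, 143 and 168 CPM in WT libraries. The groups overlap, and the log2 fold change was 0.04 (SE 0.07, adjusted p = 0.646). SLC43A3 shares 1349 exonic bases with the same-strand gene AP000781.2, which had 0 counts, so the split of reads between them is uncertain.

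Because FPKM allows for length, levels of different carriers were set side by side on that scale. In PGK1_OE cells SLC38A2 (149 ± 5.61 FPKM), SLC43A3 (61.6 ± 1.27), SLC1A5 (47.8 ± 3.38), SLC6A8 (31.6 ± 1.62) and SLC6A6 (27.6 ± 1.31) were the 5 highest (SD, n = 3). In WT cells the order was SLC1A5 (199 ± 3.27 FPKM), SLC38A2 (144 ± 4.91), SLC43A3 (60.4 ± 5.72), SLC6A15 (34.8 ± 1.11) and SLC38A1 (27.9 ± 3.23). SLC38A1 and SLC6A8 (26.6 ± 0.621), the fifth and sixth in WT cells, did not differ beyond their spread. Of the 44 genes, 17 reached a mean of 1 FPKM in PGK1_OE cells and 17 did in WT cells.

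All 44 genes together summed to 441, 440.3 and 428 FPKM in PGK1_OE libraries, against 600.2, 573 and 604 FPKM in WT libraries. SLC1A5 held 10.02%, 11.6% and 11.3% of that sum in PGK1_OE libraries, against 33.4%, 34.0% and 33.3% in WT libraries. The difference in mean sum, PGK1_OE minus WT, was -156 FPKM, and that in SLC1A5 alone was -151 FPKM. Without SLC1A5 the sums were 397, 389 and 379 FPKM in PGK1_OE libraries, against 399.7, 378 and 403 FPKM in WT libraries, and these overlap. By family, SLC1 summed to 74.4 ± 2.56 FPKM in PGK1_OE cells and 215 ± 4.57 FPKM in WT cells, while SLC6 summed to 76.8 ± 3.30 FPKM in PGK1_OE cells and 78.3 ± 1.67 FPKM in WT cells (SD, n = 3 each). The SLC6 sum was near level although SLC6A6 and SLC6A8 were higher and SLC6A15 lower. SLC38A2 held 34.1% ± 1.10 of the sum in PGK1_OE cells and 24.4% ± 0.144 in WT cells (SD, n = 3 each). The sum was itself lower in PGK1_OE, and SLC38A2 stood at 149 FPKM in PGK1_OE and 144 FPKM in WT. SLC6A6 held 6.33% ± 0.201 in PGK1_OE cells and 1.99% ± 0.05 in WT cells. FPKM is relative to a library's own reads, so a fall in all mRNA would not show.

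**Figure D3:**
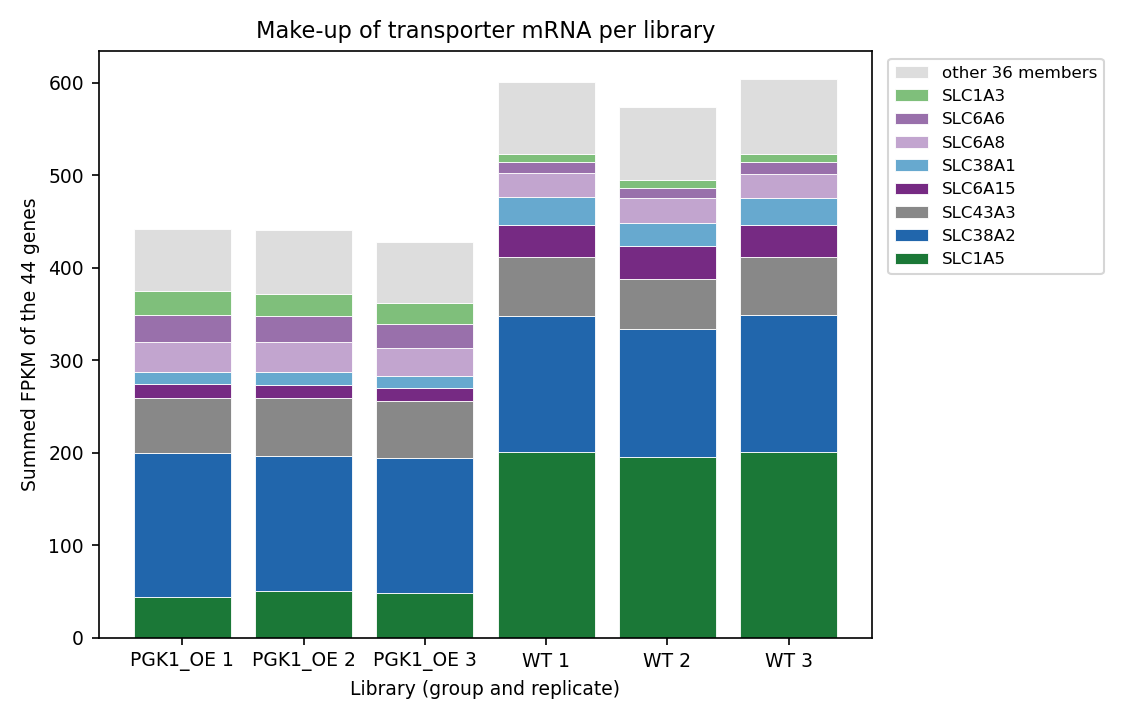
Each bar is 1 library and its height the summed FPKM of the 44 transporter genes, split into the 8 genes named in the legend and the other 36; the axis starts at 0. PGK1_OE bars reach 428 to 441 and WT bars 573 to 604, and the lowest segment, SLC1A5, is between 44.2 and 50.9 FPKM in PGK1_OE and between 195 and 201 FPKM in WT.

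Counts and FPKM gave the same direction for the 24 tested genes, and for 22 of them the log2 values differed by at most 0.2. The exceptions were SLC36A4 and SLC38A9, both lower by FPKM than by counts. For SLC36A4, 1 CPM stood for 0.169, 0.174 and 0.160 FPKM in PGK1_OE libraries, against 0.248, 0.170 and 0.267 FPKM in WT libraries, with WT replicate 2 near the PGK1_OE values. For SLC38A9 it stood for 0.402, 0.418 and 0.423 FPKM in PGK1_OE libraries, against 0.479, 0.504 and 0.464 FPKM in WT libraries. The tool that gave the FPKM values and the lengths it used were not given in these sources.

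**Figure D4:**
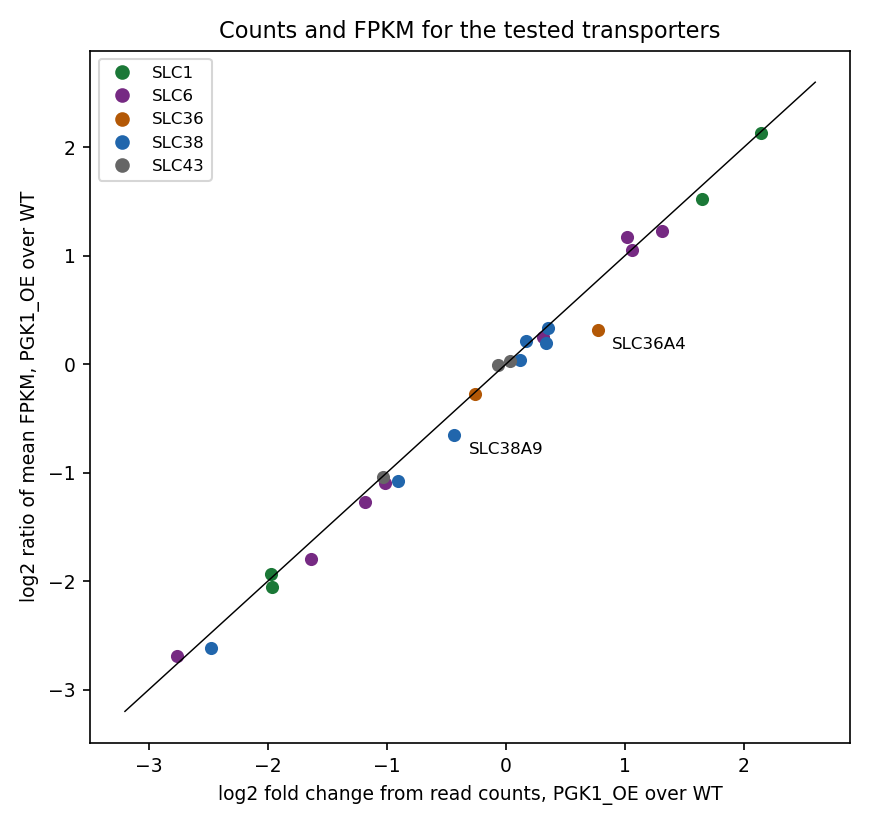
Each point is 1 of the 24 tested genes, with the log2 fold change from read counts on the x axis and the log2 ratio of mean FPKM on the y axis, both PGK1_OE over WT and coloured by family. The line marks equal values; the labelled SLC36A4 and SLC38A9 lie below it by 0.46 and 0.22.

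Other genes of amino acid transport and of its control were set beside the carriers. Counts in each list that follows stand beside 71.2% of all 14322 entries tested that passed, 35.8% downward and 35.4% upward. The 15 SLC3 and SLC7 genes include exchangers, their heavy chains and cationic carriers. Of these 15, 8 were tested, 5 fell, 1 rose and 2 did not pass, with a median log2 fold change of -1.19. SLC3A2, the heavy chain shared by several exchangers, fell by 2.82, SLC7A5, which trades glutamine for leucine, by 3.02, the cationic carrier SLC7A1 by 1.92 and SLC7A2 by 0.45 on the log2 scale. SLC7A11, named here because it is in the series' title, fell by 4.68. Of 9 genes of the integrated stress response 8 fell and 1 rose (median -2.51), and this direction was already known when the list was made. ASNS (-4.94), TRIB3 (-3.29), DDIT3 (-3.29) and CEBPB (-1.94) had the smallest adjusted p of these, from 5.27e-13 to 6.61e-12 by edgeR. The median of the 24 carriers, -0.01, lies close to that of all entries, -0.02.

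Of 14 genes that report amino acids to mTOR on the lysosome or move them there, 9 rose, 1 fell and 4 did not pass (median 0.31). The share that passed in either direction is near the 71.2% of all entries tested. MTOR (0.58), LAMTOR5 (0.58), LAMTOR1 (0.50) and LAMTOR4 (0.63), the last 3 being subunits of the Ragulator complex, had the smallest adjusted p. The carriers found on lysosomes did not move as 1 group, with SLC36A1 and SLC38A9 lower and SLC38A7 higher. Of 3 osmolyte genes, SLC5A3, a myo-inositol carrier, had 141, 119 and 113 CPM in PGK1_OE libraries, against 27.3, 25.2 and 25.3 CPM in WT libraries (log2 fold change 2.26, SE 0.08, adjusted p = 1.06e-08). The aldose reductase gene AKR1B1 rose by 0.29 and NFAT5, the transcription factor that answers to high salt, fell by 0.39 on the log2 scale. SLC5A3, AKR1B1 and SLC6A6 mRNAs were thus higher and NFAT5 mRNA lower in PGK1_OE cells, and whether these are linked was not tested.

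Of 7 creatine genes 5 were tested, 2 rose, 1 fell and 2 did not pass. GAMT, the last enzyme of creatine synthesis, had 18.8 ± 0.991 CPM in PGK1_OE and 9.22 ± 1.31 CPM in WT (log2 fold change 1.03, SE 0.12, adjusted p = 7.48e-06), and CKB, a creatine kinase, rose by 0.42. CKMT2, a mitochondrial creatine kinase, fell by 1.29. CKMT1B stood at 0.35 (adjusted p = 0.579), a value made uncertain by its near-identical copy CKMT1A. Of 5 partners and regulators of carriers 3 were tested. NEDD4L, a ubiquitin ligase known to act on membrane carriers, had 439.5 ± 11.3 CPM in PGK1_OE and 1166 ± 39.5 CPM in WT (log2 fold change -1.41, SE 0.04, adjusted p = 7.95e-11). NEDD4, a related ligase, fell by 0.68, and ARL6IP5, known in rodents to bind the glutamate carrier SLC1A1, rose by 0.44. These are mRNA levels, and neither transporter protein nor amino acid uptake was measured here.

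**Figure D5:**
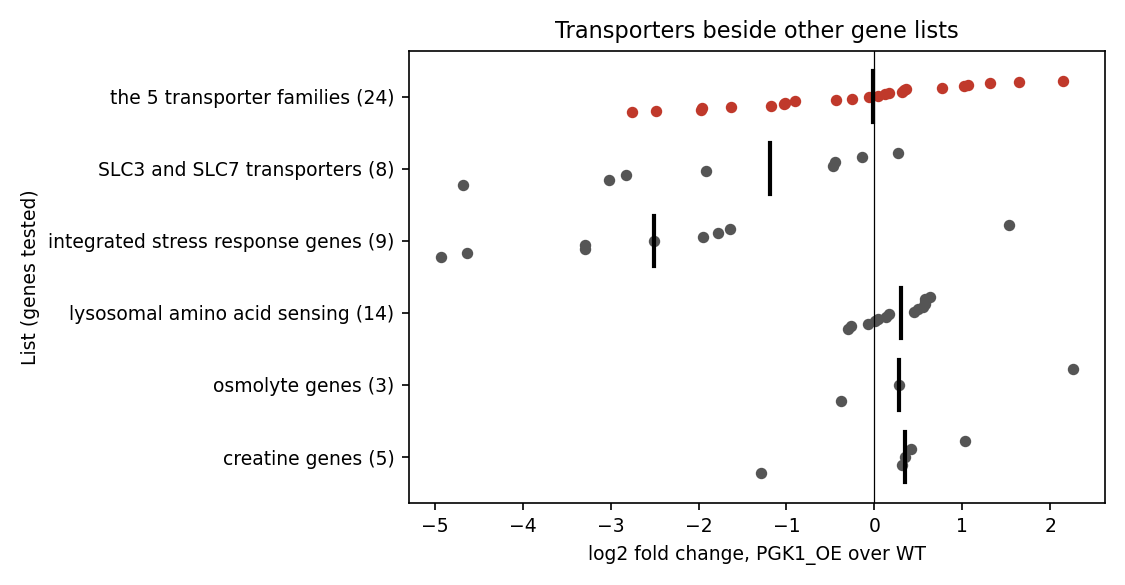
Each point is the log2 fold change, PGK1_OE over WT, of 1 tested gene, spread vertically within its row so that points can be told apart, and black bars are medians; numbers in brackets are genes tested. The 24 carriers spread to both sides of 0 with a median of -0.01, while the SLC3 and SLC7 list has a median of -1.19 and the stress response list of -2.51.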

How the data were processed

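PolyA RNA libraries of HT1080 cells were made with a commercial kit, per the labels' protocols. The submitters' processing notes name fastp, HISAT and build hg38. The versions, read counter, strand setting and annotation were not given in the sources used here. Per the file headers, the deposited count table holds raw counts per gene, and the FPKM table holds the authors' values per gene length and library size. Columns were matched to samples through the labels' descriptions.

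Counts were tested in R 4.3.3 with edgeR 4.0.16: filterByExpr by group, TMM scaling, robust quasi-likelihood test of PGK1_OE against WT, two-sided, with Benjamini-Hochberg adjustment over 14322 entries, called at an adjusted p under 0.05. The SE is the log2 fold change divided by the root of F. The script was tested on simulated counts. CPM uses TMM-scaled totals. DESeq2 1.42.0 and limma 3.58.1 served as alternatives.

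Values in every library are given for members past the threshold with a log2 fold change of at least 1 in size, or with 20 CPM in either group, and other members were added after their values were seen. Up to 4 genes per list have the smallest adjusted p. Members and lists were chosen with earlier results of these data known. Positions and overlaps come from GENCODE 29 (GRCh38, as hg38), and promoter windows from RefSeq. The values of 1 tested carrier are not reported here. A floor of 3 counts covers counting error only.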

Additional observations from a re-analysis of the deposited data

How the results depend on the processing

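Of the 24 tested carriers, 17 kept direction and side of the threshold under each of the 15 alternatives that could be fitted to them. Over all carriers, 11 values lost the threshold, 6 gained it and 3 turned direction, the cause of which was not tested. The count of carriers that rose was 6 by limma on log2(FPKM + 1) and 6 on log2(FPKM + 0.1), against 10 by counts; these fits kept 18 carriers, because a minimum of 1 FPKM in 3 libraries was set. Without that minimum, limma on log2(FPKM + 1) called 8 up and 11 down. Leaving out each library in turn gave 9 to 11 carriers up and 10 to 11 down. The turned values were all of genes that did not pass: with 1 library left out, SLC43A3 ranged from -0.036 to 0.097, negative without WT replicate 2, and SLC43A2 from -0.21 to 0.15, positive without WT replicate 3 and at 0.041 without PGK1_OE replicate 1. SLC38A2 was also lost at an adjusted p under 0.01. DESeq2, RLE scaling, testing with no low-count filter, and scaling computed without PGK1 called the same 20 carriers. The labels do not say that replicate numbers pair libraries, and deviations of same-numbered libraries correlated at 0.0102, -0.00678 and 0.123. Of the PGK1_OE libraries, only replicate 3 correlated best with its own number. With the replicate number as a block 10 carriers rose, 10 fell, and 9943 entries passed in place of 10195. Low genes such as SLC1A1, SLC38A5 and SLC6A20 are limited by depth.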
